A study of Mus musculus with 19 samples.

Results

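This comparison asks what the papillomavirus oncogenes E6 and E7 add to the transcripts of mouse tongue epithelium in which an active form of the co-activator YAP is already switched on. RNA from 6 mice with E6-E7 and active YAP (the EY mice) was set against RNA from 3 mice with active YAP alone (the Y mice). The comparison takes every gene with at least 0.1 TPM (a share of the library, corrected for the length of the gene) in 3 or more of these 9 mice. That holds for 21315 of the 24689 genes in the deposited table, and the 9 mice are part of the study's 19.

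The study switched on 1 or both transgenes in the tongue and sequenced polyA RNA from bulk epithelium 15 days later. The Y mice carried Krt14-CreERT, LSL-rtTA and tetON_YAP1S127A, and the EY mice carried the same alleles with tetON_E6-E7 added. The other mice were 5 with E6-E7 but no active YAP (E: Krt14-CreERT, LSL-rtTA and tetON_E6-E7) and 5 controls (N). Of the N mice, 3 carried Krt14-CreERT and LSL-rtTA, N mouse 4 carried LSL-rtTA without Cre, and N mouse 5 carried Krt14-CreERT, tetON_E6-E7 and tetON_YAP1S127A without rtTA. By the study's methods the lines also bear a tetON_H2B-GFP reporter, the mice were adult littermates, tamoxifen was injected into the tongue, and doxycycline was given in the chow. Tamoxifen lets CreERT remove the stop in front of rtTA, and doxycycline lets rtTA drive the tetON transgenes. The Krt14 promoter limits Cre to basal progenitors, so only cells in which Cre acted, and their descendants, carry active transgenes. Each library holds these cells together with epithelium that never recombined and with whatever other cells remained on the freed sheet.

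E6 directs the cell's p53 to degradation, and E7 binds the RB family of pocket proteins and frees the E2F factors that switch on the genes of DNA replication. YAP works with TEAD factors on DNA. The Hippo kinases normally hold it in the cytoplasm, and the S127A form escapes them. In the tongue, basal cells with Krt5 and Krt14 divide, their daughters move up and make Krt4 and Krt13, and the filiform papillae on the upper surface make hair-type keratins and a cornified envelope, a shell of cross-linked protein on the outermost cells.

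The read totals recovered from the TPM values were 8269674, 8679053 and 9249340 in Y mice 1, 2 and 3 and lay between 8841013 and 11007304 in the EY mice. Between 20211 and 21714 genes per mouse were above 0. Across genes, Pearson's r of log2 TPM was 0.881 to 0.900 between Y mice, 0.856 to 0.895 between EY mice and 0.845 to 0.870 between an EY and a Y mouse, so the groups stood apart by little more than mice of the same group. The labelled tissue was checked on 10 markers of oral epithelium, all of them detected. Krt14, the basal keratin whose promoter drives Cre, was at 22978, 10895 and 12943 TPM in Y mice 1, 2 and 3 and between 10196 and 24658 TPM in the EY mice (median 17489), and Krt13, the main suprabasal keratin, at 52169, 29697 and 44865 TPM in Y mice 1, 2 and 3 and between 18471 and 27609 TPM in the EY mice (median 19696). The fold change of Krt14 was 0.10 on the log2 scale and -0.08 after median-of-ratios scaling, with an adjusted p of 0.875 from limma. Transcripts of mouse Yap1 lay at 9.65, 6.62 and 9.45 TPM in Y mice 1, 2 and 3 and between 7.99 and 10.7 TPM in the EY mice (median 9.07). Their log2 fold change was 0.09, and -0.08 after scaling, so its sign depends on the scaling. Reads of the E6, E7 and YAP1S127A transgenes were not analysed here. Xist, chosen after its values were seen because it marks females, was above 10 TPM in 2 of the 3 Y mice and 1 of the 6 EY mice, so sex, as read from this gene, differs between the groups.

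In EY against Y, a gene was called when limma gave an adjusted p below 0.01 and a log2 fold change beyond 1 in either direction. By this test 471 genes differed, or 2.21% of the 21315. Of these, 250 rose (1.17%) and 221 fell (1.04%), so 53.1% of the called genes rose. At an unadjusted p below 0.05 limma found 5387 genes, or 25.3%, which is the share of all genes to hold beside such counts below. In 247 of the genes that rose all 6 EY mice were above all 3 Y mice, and in 213 of those that fell all were below, against 11.8% and 3.53% of all genes tested. These 2 shares, with the 1.17% that rose and the 1.04% that fell, are likewise those to hold beside the counts of the lists below. The falls were larger than the rises, with a median log2 fold change of -1.99 against 1.30. Among all genes the median was 0.18, and median-of-ratios scaling moved it by -0.16 to 0.02. After that scaling 124 genes rose (0.582%) and 292 fell (1.37%), 29.8% of the called genes rose, and 124 of the 250 and 218 of the 221 genes were called again. The total also rests on the small Y group. It was 197 without Y mouse 1 (84 higher and 113 lower), 259 without Y mouse 2 (142 and 117) and 277 without Y mouse 3 (181 and 96). When the spread was estimated from these 9 mice alone it was 211 (154 and 57), and with Xist as a covariate for sex it was 360, with 137 lower. Because RNA was taken from bulk tissue, fewer cells of a type and less RNA per cell cannot be told apart in any of these values.

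**Figure D1:**
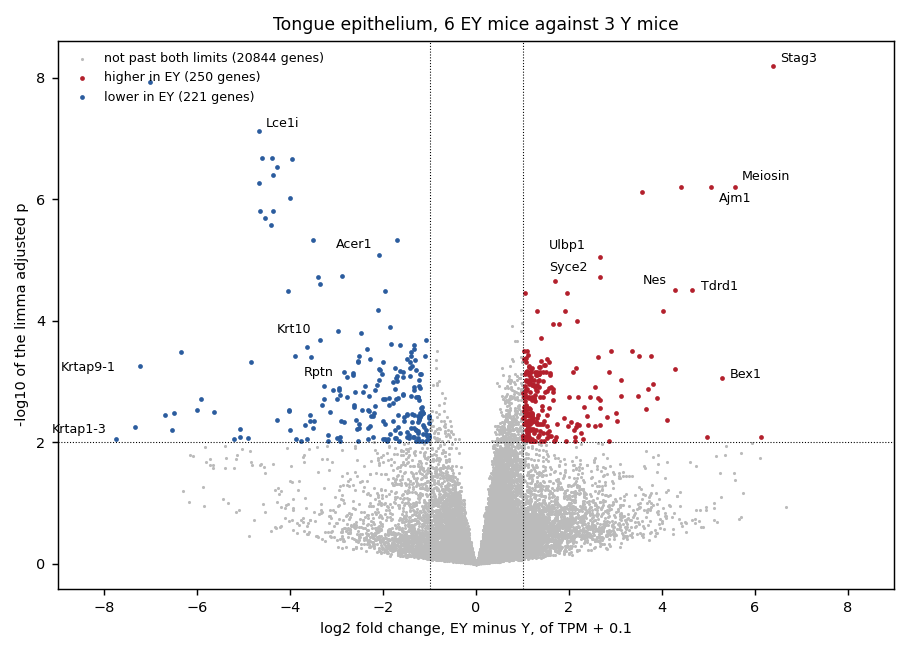
Each point is a gene, placed by its log2 fold change, EY minus Y, of TPM + 0.1 (x axis) and by -log10 of its limma adjusted p (y axis), with 250 genes that rose in red, 221 that fell in blue and the other 20844 in grey. Dotted lines mark the limits of the test at 0.01 and at log2 fold changes of -1 and 1, and of the labelled genes the lowest is Krtap1-3 at -7.34 and the highest Stag3 at 6.40.

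The genes that fell took a larger share of the library in Y mice than in EY mice. Together the 221 took 6.08%, 6.82% and 6.53% of all TPM in Y mice 1, 2 and 3, and between 1.10% and 1.92% in the EY mice (median 1.45%). In the N mice their share was 13.5% to 19.2%, and in the E mice 14.4% to 20.1%. The 250 genes that rose took 0.239%, 0.281% and 0.307% in the Y mice and 0.632% to 0.728% in the EY mice. These shares describe genes that were chosen by the same comparison, and no test is given for them.

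The genes that rose included several of meiosis and the germ line, with fold changes that depend on the 0.1 TPM added before the logarithm. Stag3, a subunit of the cohesin ring that holds sister chromatids together in meiosis, was at 0.0449, 0.178 and 0.244 TPM in Y mice 1, 2 and 3 and between 15.9 and 25.3 TPM in the EY mice (median 20.2). Every EY mouse was far above every Y mouse. Its log2 fold change was 6.40 ± 0.32 (SE), with a limma adjusted p of 6.37e-09. Meiosin, a partner of the factor that starts meiosis, was at 0.0746, 0.131 and 0.0676 TPM in Y mice 1, 2 and 3 and between 5.02 and 13.1 TPM in the EY mice (median 9.41), again without overlap, with a log2 fold change of 5.57 ± 0.43 and an adjusted p of 6.41e-07. Tdrd1, which works in the piRNA pathway that silences transposons in male germ cells, was at 0.263, 0 and 0.0895 TPM in Y mice 1, 2 and 3 and between 2.51 and 6.48 TPM in the EY mice (median 5.00), and its log2 fold change was 4.65 ± 0.50 with an adjusted p of 3.12e-05.

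Some other genes of meiosis also rose, from different levels. Syce2, a protein of the central element of the synaptonemal complex that zips paired chromosomes, was already at 3.49, 5.20 and 4.50 TPM in Y mice 1, 2 and 3 and lay between 21.4 and 32.7 TPM in the EY mice (median 29.4), with a log2 fold change of 2.66 ± 0.27 and an adjusted p of 1.90e-05. Smc1b, the meiotic partner of Stag3 in cohesin, stayed at a low level. It was at 0.0429, 0 and 0 TPM in Y mice 1, 2 and 3 and between 0.352 and 1.36 TPM in the EY mice (median 0.460), with a log2 fold change of 2.63 and an adjusted p of 3.94e-04. Zcwpw1, a reader of the histone marks left by the enzyme that places meiotic breaks, was at 0.207, 0.602 and 0.3 TPM in Y mice 1, 2 and 3 and between 5.49 and 13.8 TPM in the EY mice (median 10.4), with a log2 fold change of 4.42 and an adjusted p of 6.41e-07. Pilra, an immune receptor gene, lies next to it among the tested genes in the RefSeq annotation of GRCm38.p6 and rose by 4.28. Their transcripts may be hard to separate. Iho1, needed for the breaks themselves and chosen after its values were seen, was listed at 0 in all Y mice and lay between 0.688 and 1.503 TPM in the EY mice (median 1.14). Of these genes, Syce2 and Zcwpw1 were above 0.1 TPM in all 3 Y mice, and they passed the test in each of the 9 fits that left out 1 EY or Y mouse. Stag3, Meiosin, Tdrd1, Smc1b and Iho1 were not. They needed the EY mice to reach the level of the comparison, so the filter favoured a rise, and their values are given as a description.

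The list of meiosis and germline genes holds 44 genes. The table lists 29 of them, and 19 reached the level of the comparison. Of the 19, 5 rose, among them Stag3, Tdrd1 and Smc1b with the limit given above, and none fell. Fold changes were negative in 4, down to -1.88, and 1 gene was lower in every EY mouse. A further 5 of the 29 (Sycp2, Tex11, Dmc1, Majin and Slc25a31) are listed at 0 in all Y mice. Any of them that reached that level did so through the EY mice alone and could only have a positive fold change. For this reason the list's median is not set against that of all genes, and it moved with the filter as well as with the 0.1 TPM. The list's summed level was 37.4, 32.6 and 36.7 TPM in Y mice 1, 2 and 3 and between 81.1 and 108 TPM in the EY mice (median 95.2). The other 39 genes of the list were not in the table, were below that level or were not called.

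Promoters were read for the genes that moved, since E7 acts through E2F and a shared motif can be seen in the letters. RefSeq windows of GRCm38.p6, from 250 bases before to 50 after a gene's start, were matched by symbol for 191 of the 250 genes that rose, 152 of the 221 that fell and 12453 of the 21315. The E2F motifs TTCCCGC or TTGGCGC, searched on both strands, were in 27.7% of the windows of genes that rose (62 of 224) and 2.25% of those of genes that fell (4 of 178). The share was 10.8% for the windows of all genes tested (1683 of 15592) and 6.81% for all 32851 windows. CCAAT, the letters of NF-Y, was in 50.4%, 41.6%, 37.1% and 37.4% of the same sets in that order, and TTTGAA, the cell cycle homology element, in 24.1%, 17.4%, 13.1% and 17.9%. The AP-1 motif TGANTCA ran the other way, with 3.12% for genes that rose, 12.4% for genes that fell, 6.22% for genes tested and 7.81% overall. A match is a description of the letters and not a site or a cause.

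Windows of 4 genes that rose are shown because each holds an E2F motif, in capitals on either strand. Stag3 (chr5:138280259-138280558, plus strand), Smc1b (chr15:85131908-85132207, minus strand) and Ulbp1 (chr10:7473428-7473727, minus strand) are genes at low levels in the Y mice. Mcm3 (chr1:20820263-20820562, minus strand), a subunit of the replicative helicase, is a gene of ordinary division. In its window TTGGCGC overlaps its own reverse complement, so that a run of capitals is longer than the motif. The coordinates and letters are those of RefSeq for GRCm38.p6.
Stag3: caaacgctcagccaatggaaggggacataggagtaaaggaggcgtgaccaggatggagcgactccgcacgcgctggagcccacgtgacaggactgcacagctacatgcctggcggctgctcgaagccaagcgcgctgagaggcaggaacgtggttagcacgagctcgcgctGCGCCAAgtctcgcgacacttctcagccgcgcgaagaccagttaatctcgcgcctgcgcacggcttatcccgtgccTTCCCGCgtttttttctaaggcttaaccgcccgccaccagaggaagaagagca
Smc1b: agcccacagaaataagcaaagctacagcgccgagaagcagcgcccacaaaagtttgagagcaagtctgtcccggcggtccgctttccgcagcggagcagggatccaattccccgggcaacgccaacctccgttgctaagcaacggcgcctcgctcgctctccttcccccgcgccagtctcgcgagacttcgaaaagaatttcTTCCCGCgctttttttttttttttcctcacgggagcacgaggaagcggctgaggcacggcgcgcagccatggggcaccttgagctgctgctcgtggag
Ulbp1: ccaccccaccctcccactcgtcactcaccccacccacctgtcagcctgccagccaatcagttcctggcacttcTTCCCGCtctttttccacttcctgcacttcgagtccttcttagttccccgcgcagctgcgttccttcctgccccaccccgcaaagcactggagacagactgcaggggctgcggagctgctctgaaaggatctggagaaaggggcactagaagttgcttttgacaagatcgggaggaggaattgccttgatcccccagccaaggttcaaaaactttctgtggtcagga
Mcm3: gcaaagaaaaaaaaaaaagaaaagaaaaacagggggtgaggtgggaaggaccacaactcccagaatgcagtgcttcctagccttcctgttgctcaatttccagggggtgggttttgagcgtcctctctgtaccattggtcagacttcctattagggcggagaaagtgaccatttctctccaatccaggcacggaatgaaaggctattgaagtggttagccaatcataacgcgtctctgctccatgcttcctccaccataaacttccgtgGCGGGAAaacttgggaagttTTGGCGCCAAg

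Ulbp1, chosen after its values were seen, encodes a stress ligand that the NKG2D receptor of natural killer cells recognises. It was at 1.69, 3.23 and 1.94 TPM in Y mice 1, 2 and 3 and between 10.99 and 19.07 TPM in the EY mice (median 14.4), with a log2 fold change of 2.66 ± 0.26 and an adjusted p of 8.83e-06. Mcm3 was at 16.2, 12.2 and 19.4 TPM in Y mice 1, 2 and 3 and between 31.8 and 61.6 TPM in the EY mice (median 40.2). The groups did not overlap, and the log2 fold change was 1.45 ± 0.23 with an adjusted p of 9.90e-04.

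The list of DNA replication and nucleotide supply moved as a body. All 50 genes had positive fold changes, with a median log2 fold change of 1.08 against 0.18 for all genes. Of the 50, 46 were higher in every EY mouse than in every Y mouse (11.8% of all genes), and 27 rose by the test (1.17%). Its summed level was 879.7, 989 and 1090.1 TPM in Y mice 1, 2 and 3 and between 1834 and 2418 TPM in the EY mice (median 2011). Scaling lowered the median to 0.90 and the number that rose to 13, and the number was 9 without Y mouse 1 and 18 without Y mouse 2. Of the helicase subunits Mcm2 to Mcm7, 5 of 6 rose, with a median of 1.24. Orc1, of the complex that marks origins, rose by 1.61 (adjusted p 0.00123), though without Y mouse 1 its adjusted p was 0.0124. 

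Ahead of replication, the cyclins that drive entry into S phase rose as well. Ccne2 was at 11.3, 15.04 and 14.4 TPM in Y mice 1, 2 and 3 and between 33.0 and 54.7 TPM in the EY mice (median 36.9), with a log2 fold change of 1.57 ± 0.26 and an adjusted p of 0.00127, or 0.0129 without Y mouse 1. Ccne1 rose by 1.48, with an adjusted p of 0.00152, or 0.0143 without Y mouse 2. Cdk2, the kinase these cyclins bind, rose by 1.02 and sat at the limit, since its fold change was below 1 without EY mouse 1 or EY mouse 4, down to 0.99. Cdkn1c, an inhibitor of that kinase, rose too, from 7.18, 9.37 and 5.06 TPM in Y mice 1, 2 and 3 to between 22.7 and 44.3 TPM (median 32.2) in the EY mice. Its log2 fold change was 2.19 ± 0.38 with an adjusted p of 0.00179, which was up to 0.0147 without Y mouse 1 or Y mouse 3. These 4 were the genes that rose among 16 G1 cyclins, CDKs and inhibitors, whose median was 0.53. Only 2 of them rose without Y mouse 1.

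Among 13 E2F factors and pocket proteins, E2f7, a repressor that E2F itself switches on, rose by 1.60 ± 0.24 from 1.702, 1.21 and 1.39 TPM in Y mice 1, 2 and 3 to between 3.34 and 5.99 TPM (median 4.78) in the EY mice, with an adjusted p of 7.38e-04. The list's median was 0.62, and 10 of its genes were higher in all EY mice than in all Y mice. Without Y mouse 3 a further gene of the list rose, which made 2. E2f8, the close relative of E2f7, had a log2 fold change of 0.96 and an adjusted p of 0.0201 and did not pass. Rb1, whose protein E7 binds, had 0.42 with an adjusted p of 0.109. Cdkn2a, which encodes the p16 inhibitor and is held down by RB, was at 0.143, 0 and 0.0324 TPM in Y mice 1, 2 and 3 and between 0.0978 and 1.18 TPM in the EY mice (median 0.455). Its log2 fold change of 1.75 did not pass the test, with an adjusted p of 0.0567.

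Mitosis followed replication. All 49 genes tested had positive fold changes, 45 were higher in every EY mouse (11.8% of all genes), and 21 rose (1.17%), with a median of 0.97. Their summed level was 985, 1051 and 1170.3 TPM in Y mice 1, 2 and 3 and between 1860.0 and 2218 TPM in the EY mice (median 2136). After scaling the median was 0.79 and the number that rose was 4, and without Y mouse 1 or Y mouse 2 it was 6 or 13. Ndc80, which ties kinetochores to microtubules, was at 2.63, 3.78 and 3.97 TPM in Y mice 1, 2 and 3 and between 7.81 and 11.1 TPM in the EY mice (median 9.49), and rose by 1.44 ± 0.22 with an adjusted p of 7.00e-04. Mki67, the antigen that labels dividing cells, was at 66.5, 70.2 and 85.7 TPM in Y mice 1, 2 and 3 and between 128 and 188 TPM in the EY mice (median 157). Its log2 fold change was 1.08 ± 0.17, with an adjusted p of 9.47e-04, but it was under the fold limit after scaling, as was Top2a, the topoisomerase that untangles chromosomes (1.08). Without Y mouse 1 the fold change of Top2a was 0.97, also under that limit.

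Of 26 genes of damage signalling and recombination repair, 8 rose (1.17% of all genes), 21 were higher in all EY mice (11.8%) and the median was 0.85. The number that rose was 1 without Y mouse 1, 4 without Y mouse 2, 5 without Y mouse 3 or EY mouse 2, and 4 after scaling. Ticrr, which helps start replication at origins and links it to checkpoints, was at 1.96, 1.32 and 1.57 TPM in Y mice 1, 2 and 3 and between 3.62 and 5.08 TPM in the EY mice (median 4.27), and rose by 1.38 with an adjusted p of 7.03e-04. Brip1, a helicase that works with BRCA1, rose by 1.43 with an adjusted p of 0.00178, or 0.0185 without Y mouse 1. Brca2, of recombination repair, rose by 1.18 with an adjusted p of 0.00357, up to 0.0218 without Y mouse 1, 2 or 3. Among 14 genes of PRC2 and DNA methylation, Hells, a remodeller needed for DNA methylation, rose by 1.26 with an adjusted p of 9.47e-04, or 0.0109 without Y mouse 1. Uhrf1, which brings the maintenance methyltransferase to new DNA, had a log2 fold change of 0.85, short of the limit. The median of that list was 0.69.

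**Figure D2:**
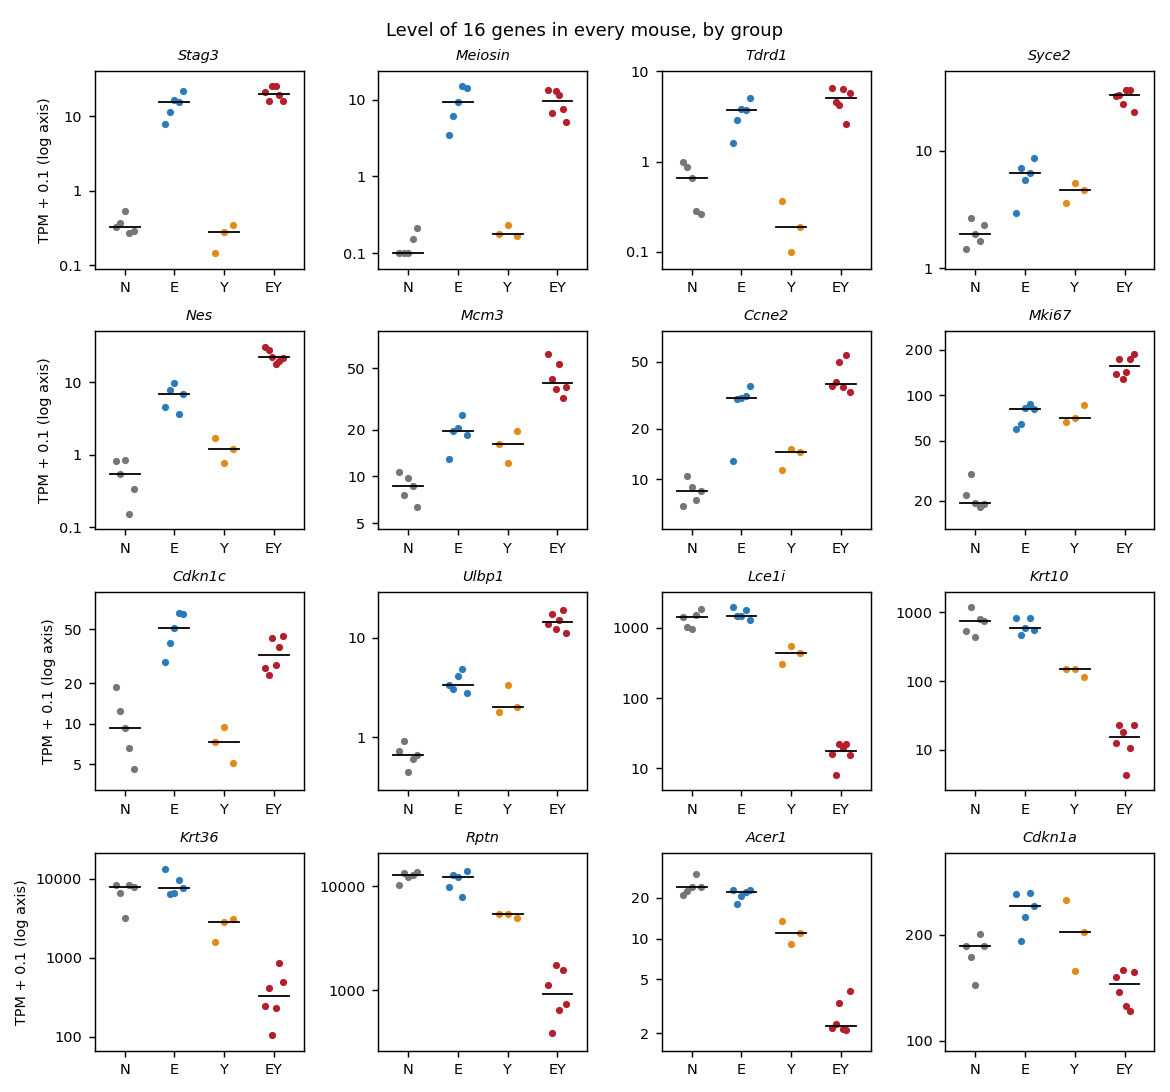
Each point is a mouse, with TPM + 0.1 on a log axis for 16 genes in the N, E, Y and EY groups, and a line marks the median of each group. Stag3 lies between 15.9 and 25.3 TPM in the EY mice and at or under 0.244 in the Y mice, and Lce1i runs the other way.

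The targets of p53 had fold changes of both signs, 23 positive and 14 negative. Of 37 genes, 2 fell, none rose, 1 was higher in all EY mice and 3 were lower. Among all genes tested 1.04% fell, 1.17% rose, 11.8% were higher in all EY mice and 3.53% were lower. The median was 0.12, and -0.05 after scaling, against 0.18 and 0.02 for all genes. At an unadjusted p below 0.05 limma found 1 of them higher and 6 lower, a smaller share than the 25.3% of all genes. Cdkn1a, which encodes the p21 brake on the cell cycle and is the best known target, was at 249.8, 157 and 203 TPM in Y mice 1, 2 and 3 and between 122 and 159 TPM in the EY mice (median 145). The groups overlapped by a narrow margin, since EY reached 158.6 and Y mouse 2 was at 157.4, and the log2 fold change of -0.50 ± 0.14 had an adjusted p of 0.0360. Mdm2, whose protein removes p53, was at 31.6, 24.1 and 24.7 TPM in Y mice 1, 2 and 3 and between 25.2 and 36.0 TPM in the EY mice (median 28.8), with a log2 fold change of 0.12, or -0.05 after scaling. The genes that fell were Trp53inp1, a p53 target that promotes cell death (-1.20, adjusted p 0.00338), and Btg2, which slows division (-1.91, adjusted p 0.00962). Trp53inp1 was not called without Y mouse 1 or Y mouse 2 (adjusted p up to 0.0304), and Btg2 in none of the fits that left out a mouse, with an adjusted p of up to 0.0610 without any of EY mice 1 to 6 or Y mice 1 to 3. Transcripts of Trp53 itself were at 28.2, 20.5 and 27.4 TPM in Y mice 1, 2 and 3 and between 27.2 and 36.4 TPM in the EY mice (median 33.3) and did not pass the test (0.36, adjusted p 0.186). E6 acts on p53 as a protein, which RNA does not show.

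Targets of YAP were not called in either direction when E6-E7 was added. Of 22 genes limma called 0, with 3 higher and 2 lower at an unadjusted p below 0.05 (25.3% of all genes were), and the median was 0.28, or 0.10 after scaling, close to that of all genes. Ccn1, a secreted matrix protein and classic YAP target, was at 329, 325 and 354 TPM in Y mice 1, 2 and 3 and between 252 and 509 TPM in the EY mice (median 419), against a mean of 108 ± 18.4 TPM in N and 103 ± 46.0 in E. Its log2 fold change in EY against Y was 0.18 ± 0.32. Ccn2, its relative, was at 4.23, 8.62 and 12.3 TPM in Y mice 1, 2 and 3 and between 8.97 and 28.1 TPM in the EY mice (median 18.2), with 1.18 ± 0.62 and an adjusted p of 0.244. Ankrd1, another target, stayed below 2.02 TPM in every EY mouse. The 23 genes of the Hippo pathway and the TEAD factors also held 0 calls, with 8 at an unadjusted p below 0.05, against the same 25.3%, and a median of 0.19.

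Among the lists, which leave out the keratin-associated proteins given below, the lowest median belonged to the late cornified envelope genes. These encode small proteins that are cross-linked under the membrane of the outermost cells. All 21 had negative fold changes, with a median log2 fold change of -4.04 and of -4.21 after scaling. Of the 21, 19 were lower in every EY mouse than in every Y mouse (3.53% of all genes), and 16 fell (1.04%). The summed level was 18913, 19759 and 12507 TPM in Y mice 1, 2 and 3 and between 1886 and 5775 TPM in the EY mice (median 4608). The number that fell was between 13 and 16 in the fits that left out a mouse. With Xist as a covariate for sex, the medians of 3 of 47 lists moved by more than 1 SD, and this list was 1 of them. The others were the Hippo and TEAD list and the squamous differentiation factors. That SD is the spread of a list's mean level between mice within the EY and Y groups. Lce1i was at 302, 555 and 436 TPM in Y mice 1, 2 and 3 and between 7.95 and 22.2 TPM in the EY mice (median 17.6), with a log2 fold change of -4.68 ± 0.29 and an adjusted p of 7.55e-08. In N and E its mean was higher than in Y, with 1368 ± 375 TPM in N and 1603 ± 267 in E (SD). Of 14 Lce1 genes 13 fell, with a median of -4.38, and of 6 Lce3 genes 3 fell, with -1.77. The Lce1 genes are near-identical copies, so the counting of reads between them is uncertain, and their calls are not independent.

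The windows of Lce1i (chr3:92778850-92779149, minus strand) and Lce1j (chr3:92790465-92790764, minus strand) are those of RefSeq for GRCm38.p6. Each runs from 250 bases before to 50 after the start of the gene. Capitals mark the longest run that the pair shares, 26 bases. That run ends both windows, so it lies after the start and may continue past the window. It is not a likeness of the letters before the start, and the likeness of the full transcripts was not tested. Lce1j, the neighbour of Lce1i among the tested genes in that annotation, was at 204, 393 and 304 TPM in Y mice 1, 2 and 3. It lay between 6.36 and 24.8 TPM in the EY mice (median 10.8) and fell by 4.68 on the log2 scale. Adjacent here means next to each other once genes that were not tested are left out. Such neighbours were common: of 194 genes that fell and could be placed, 70 (36.1%) had an adjacent gene that fell, against 1.98% of all 17895 genes placed (354). For the genes that rose it was 23 of 235 (9.79%) against 2.59% (464).
Lce1i: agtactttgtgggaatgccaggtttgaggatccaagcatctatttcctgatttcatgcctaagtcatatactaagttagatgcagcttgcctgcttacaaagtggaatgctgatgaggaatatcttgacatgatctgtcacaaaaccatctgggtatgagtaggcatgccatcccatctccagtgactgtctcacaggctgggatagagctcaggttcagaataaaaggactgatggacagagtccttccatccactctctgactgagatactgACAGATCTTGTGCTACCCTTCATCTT
Lce1j: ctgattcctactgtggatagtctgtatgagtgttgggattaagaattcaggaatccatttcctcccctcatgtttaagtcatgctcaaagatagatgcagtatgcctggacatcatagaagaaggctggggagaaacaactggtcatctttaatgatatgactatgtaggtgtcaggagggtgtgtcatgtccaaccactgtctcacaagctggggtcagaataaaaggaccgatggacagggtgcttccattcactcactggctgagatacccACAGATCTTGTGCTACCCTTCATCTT

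Other parts of the envelope fell with less uniform size. Of 22 filaggrin-type proteins, other envelope proteins and transglutaminases, all had negative fold changes and 5 fell (1.04% of all genes), with a median of -0.99. The count was 2 without Y mouse 1 and 3 without Y mouse 3, EY mouse 2 or EY mouse 4. Rptn, repetin, a filaggrin-type protein of the tongue, was at 5414, 5366 and 4957 TPM in Y mice 1, 2 and 3 and between 388 and 1740.5 TPM in the EY mice (median 924), with a log2 fold change of -2.53 ± 0.36 and an adjusted p of 4.76e-04. Lor, loricrin, a main part of the envelope of cornified skin, was at 5045, 1837 and 2457 TPM in Y mice 1, 2 and 3 and between 221 and 1015 TPM in the EY mice (median 360.5). It fell, with a log2 fold change of -2.77 ± 0.48 and an adjusted p of 0.00181, or 0.0199 without Y mouse 1. Hrnr, hornerin, next to Rptn among the tested genes, fell, with a log2 fold change of -3.27 and an adjusted p of 0.00118, or 0.0111 without Y mouse 1. The 16 small proline-rich genes, which encode cross-bridging proteins of the same envelope, held no call. Limma called 0 of them, with 1 lower at an unadjusted p below 0.05 (25.3% of all genes), while 12 had negative fold changes, 3 were lower in every EY mouse, and the median was -0.63. Sprr3, the most abundant, was at 6848, 3942 and 5268 TPM in Y mice 1, 2 and 3 and between 1919 and 3129.8 TPM in the EY mice (median 2582), which did not overlap, with a log2 fold change of -1.05 and an adjusted p of 0.183.

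Of 12 basal and suprabasal oral keratins 5 fell. Krt10, a keratin of cornifying cells, was at 149, 149 and 116 TPM in Y mice 1, 2 and 3 and between 4.22 and 23.3 TPM in the EY mice (median 15.2), with a log2 fold change of -3.36 ± 0.43 and an adjusted p of 2.12e-04. Krt24, a type I keratin gene next to Krt10 among the tested genes, was at 90.3, 204 and 297 TPM in Y mice 1, 2 and 3. It lay between 16.3 and 32.7 TPM in the EY mice (median 24.8) and fell, with a log2 fold change of -2.88 ± 0.29 and an adjusted p of 1.85e-05. Krt76, a keratin of oral cornified surfaces, fell, with a log2 fold change of -2.98 and an adjusted p of 0.00194, or up to 0.0174 without Y mouse 2 or Y mouse 3. Krt13 and Krt4, the abundant pair of the middle layers, had log2 fold changes of -0.99 and -0.85 and adjusted p values of 0.0469 and 0.109, so neither was called. Krt5, the basal partner of Krt14, was at 0.18 with an adjusted p of 0.671. The list's median was -0.99.

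Hair-type keratins, as the filiform papillae make, are on a list with their transcription factors. All 18 genes of that list had negative fold changes, 13 were lower in every EY mouse (3.53% of all genes), and 7 fell (1.04%), with a median of -2.85. Krt84, a hair-type keratin of the tongue papillae, was at 356, 492 and 649 TPM in Y mice 1, 2 and 3 and between 33.7 and 139 TPM in the EY mice (median 80.7), with a log2 fold change of -2.66 ± 0.40 and an adjusted p of 7.27e-04. Krt36, the most abundant, was at 1565, 2813 and 3130.2 TPM in Y mice 1, 2 and 3 and between 105 and 849.9 TPM in the EY mice (median 329) and fell, with a log2 fold change of -2.92 ± 0.50 and an adjusted p of 0.00169. Without Y mouse 2 or Y mouse 3 it was up to 0.0128, and the number that fell was 1. The number was 3 without EY mouse 1, 2 or 4 and 4 without Y mouse 1. Of 22 keratin-associated proteins, which bind such filaments, 11 fell. All 22 had negative fold changes, with a median of -5.27, lower than that of any list. Krtap9-1 was at 4.15, 108 and 52.0 TPM in Y mice 1, 2 and 3 and between 0 and 0.631 TPM in the EY mice (median 0), and it was listed at 0 in most EY mice. It was called in all fits that left out a mouse, but Krtap1-3 was not without EY mouse 1 or 2 or Y mouse 1, 2 or 3 (adjusted p up to 0.0326), and Krtap4-7 not without Y mouse 1, 2 or 3 (up to 0.0220). Krtap9-1 and Krtap4-7 needed the Y mice to reach the level of the comparison, so the filter favoured a fall. Their values are given as a description. The summed level of the hair-type list was 2251, 4080.1 and 4501 TPM in Y mice 1, 2 and 3 and between 216 and 1164 TPM in the EY mice (median 488), so the groups did not overlap.

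Lipids, proteases and junctions of the same outer layers had smaller lists of calls. Of 30 genes of barrier lipid synthesis 3 fell, 27 had negative fold changes, and the median was -0.56, with 2 that fell without Y mouse 1, Y mouse 3, EY mouse 2 or EY mouse 4 and 6 without EY mouse 3. Acer1, a ceramidase of the epidermis, was at 13.4, 9.01 and 10.9 TPM in Y mice 1, 2 and 3 and between 2.02 and 3.97 TPM in the EY mice (median 2.15) and fell, with a log2 fold change of -2.08 ± 0.20 and an adjusted p of 8.29e-06. Of 19 kallikrein proteases and inhibitors, which control shedding, 5 fell and the median was -1.11. That count was 0 without Y mouse 1, 1 without Y mouse 2, 2 without EY mouse 1, 3 without Y mouse 3, EY mouse 2 or EY mouse 6, and 7 without EY mouse 3. Klk9 fell, with a log2 fold change of -1.38 and an adjusted p of 0.00345, or up to 0.0339 without Y mouse 1 or Y mouse 2. Of 14 desmosome genes, Dsg1a and Dsc1, the cadherins of upper layers, fell. Dsg1a was at 115, 98.9 and 130.3 TPM in Y mice 1, 2 and 3 and between 16.8 and 41.3 TPM in the EY mice (median 34.6), with -1.86 ± 0.23 and an adjusted p of 1.27e-04, and Dsc1 fell, with a log2 fold change of -1.80 and an adjusted p of 0.00104, or 0.0119 without Y mouse 1, which left 1 that fell. The list's median was -0.30, and -0.50 to -0.10 when 1 mouse was left out.

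Other lists of epithelial factors, signals and keratins held no call, and whether they act on the genes above was not tested. Among 31 squamous differentiation factors limma called 0, with 4 higher and 8 lower at an unadjusted p below 0.05 (of all genes 25.3% were, also for the counts that follow), and the median was -0.16 (-0.38 to -0.06 when 1 mouse was left out), though leaving out EY mouse 6 gave 1 that fell. None of 27 basal progenitor and hemidesmosome genes was called (6 at an unadjusted p below 0.05, median 0.22), and without Y mouse 3 there was 1 that rose. By limma there were 0 calls also among 17 Notch genes (1 at an unadjusted p below 0.05, median -0.07), 18 Wnt genes (3, median 0.01), 10 EGF ligands (2, median -0.02) and 26 MAPK and AP-1 genes (7, median -0.10). The 9 stress and simple-epithelium keratins had 0 calls, 4 at an unadjusted p below 0.05 and a median of -0.05. Krt17, which rises in wounded epithelium, was at 3378, 2460.4 and 2953 TPM in Y mice 1, 2 and 3 and between 3958 and 8880.5 TPM in the EY mice (median 4588). These did not overlap, and the log2 fold change of 0.86 had an adjusted p of 0.0285.

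**Figure D3:**
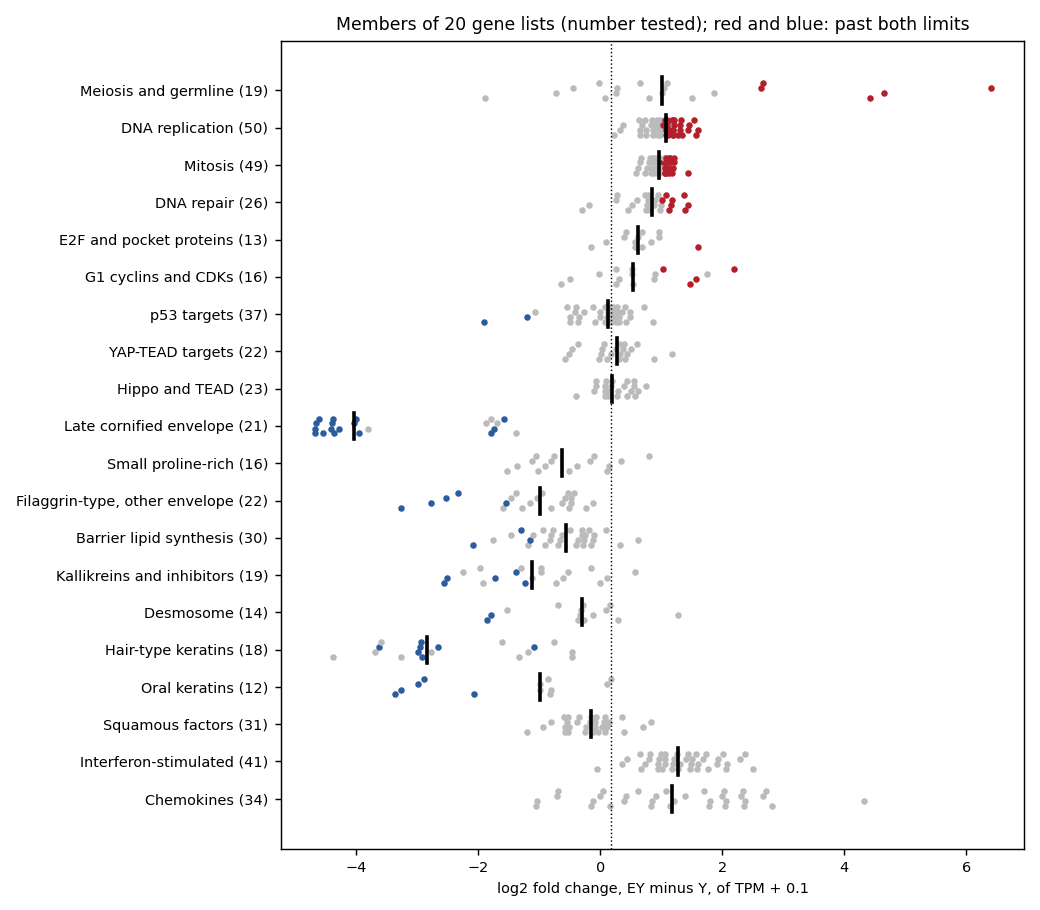
Each point is a gene of 1 of 20 lists (rows, with the number tested), placed by its log2 fold change, EY minus Y, of TPM + 0.1, in red or blue where it passed both limits. Black ticks mark list medians, from 1.08 for DNA replication to -4.04 for the late cornified envelope, and the dotted line the median of all genes, 0.18.

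Markers of immune and stromal cells were higher in many EY mice, and their part in the results was not tested. All 16 macrophage and monocyte markers had positive fold changes, with a median of 1.7, and 11 were higher in every EY mouse (11.8% of all genes). Yet limma called 0 and found 10 at an unadjusted p below 0.05, where 25.3% of all genes were. Their summed level was 148, 93.3 and 171 TPM in Y mice 1, 2 and 3. It was 549, 419, 480.1, 402, 379 and 316 TPM in EY mice 1 to 6, and none of the markers was at 0 in a whole group. Cd14 (1.12) was the most abundant by the mean of the EY and Y mice together. In the Y mice its mean was above that of Lyz2 (51.1 against 20.4 TPM), but in the EY mice it was slightly below (119 against 122 TPM). All 15 T and NK cell markers were positive, with a median of 1.02 and a summed level of 15.6, 20 and 29.5 TPM in Y mice 1, 2 and 3 and 53.2, 43.4, 43.9, 62.1, 53.2 and 36.1 TPM in EY mice 1 to 6. Their most abundant gene was Trbc2, of the T cell receptor, and Ncr1 was listed at 0 in all Y mice. Lck, a kinase of T cells, rose by 1.52 (adjusted p 0.00847), but not without any of Y mice 1 to 3 or EY mice 1 to 5, where its adjusted p was up to 0.0477. After scaling it was not called.

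Neutrophil markers, already high with active YAP, overlapped between the groups as a list. Their summed level was 775, 978 and 567 TPM in Y mice 1, 2 and 3 and 848, 631, 708, 1079, 296 and 85.9 TPM in EY mice 1 to 6. Of 15 tested, 12 had positive fold changes and the median was 1.10 (0.77 to 1.63 when 1 mouse was left out), while S100a8, the most abundant, had -0.68 and an adjusted p of 0.653. Ly6g and Mpo were listed at 0 in all Y mice. Ly6g, the surface marker of mouse neutrophils, was called, with EY mice between 0 and 2.31 TPM (median 0.865), but not without any of EY mice 1 to 5 or Y mice 1 to 3, where its adjusted p was up to 0.0446, and not after scaling. Ly6g was at 0 in all N and E mice too and was tested through the EY mice alone, so it could only rise. The 12 Langerhans and dendritic markers had 0 limma calls, 2 at an unadjusted p below 0.05 (25.3% of all genes), a median of 0.32 and a summed level of 225, 204 and 274 TPM in Y mice 1, 2 and 3 and 232, 496, 243, 221, 375 and 569 TPM in EY mice 1 to 6, with H2-Aa, of the antigen-presenting complex, the most abundant. Their part in the results was not tested.

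Fibroblast and muscle markers varied from mouse to mouse. The 13 fibroblast markers had a median of 1.88, 0 limma calls and 7 at an unadjusted p below 0.05 (25.3% of all genes). Their summed level was 42.6, 70.3 and 60.6 TPM in Y mice 1, 2 and 3 and 98.3, 114, 224, 42.8, 88.4 and 235 TPM in EY mice 1 to 6. Col3a1, a collagen, was the most abundant by the mean of the 9 mice. In the Y mice Dcn and Mmp2 were above it, with means of 18.9 and 13.1 against 5.75 TPM. The 16 skeletal muscle markers had a median of 2.46 (1.44 to 3.86 when 1 mouse was left out), 0 limma calls and 8 at an unadjusted p below 0.05, and a summed level of 33.2, 298 and 60.5 TPM in Y mice 1, 2 and 3 and 326, 153, 1921, 86.4, 415 and 262 TPM in EY mice 1 to 6, so that EY mouse 3 and Y mouse 2 stood out. Acta1, the actin of skeletal muscle, was the most abundant by the mean of the 9 mice, but in the Y mice Tnni2 had the higher mean (42.9 against 30.5 TPM). Endothelial, blood, taste, and melanocyte and Schwann cell markers gave 0 limma calls among 4, 5, 7 and 7 genes, with 2, 0, 0 and 1 at an unadjusted p below 0.05, and medians of 1.09, -0.05, 0.23 and 0.80. Their part in the results was not tested.

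**Figure D4:**
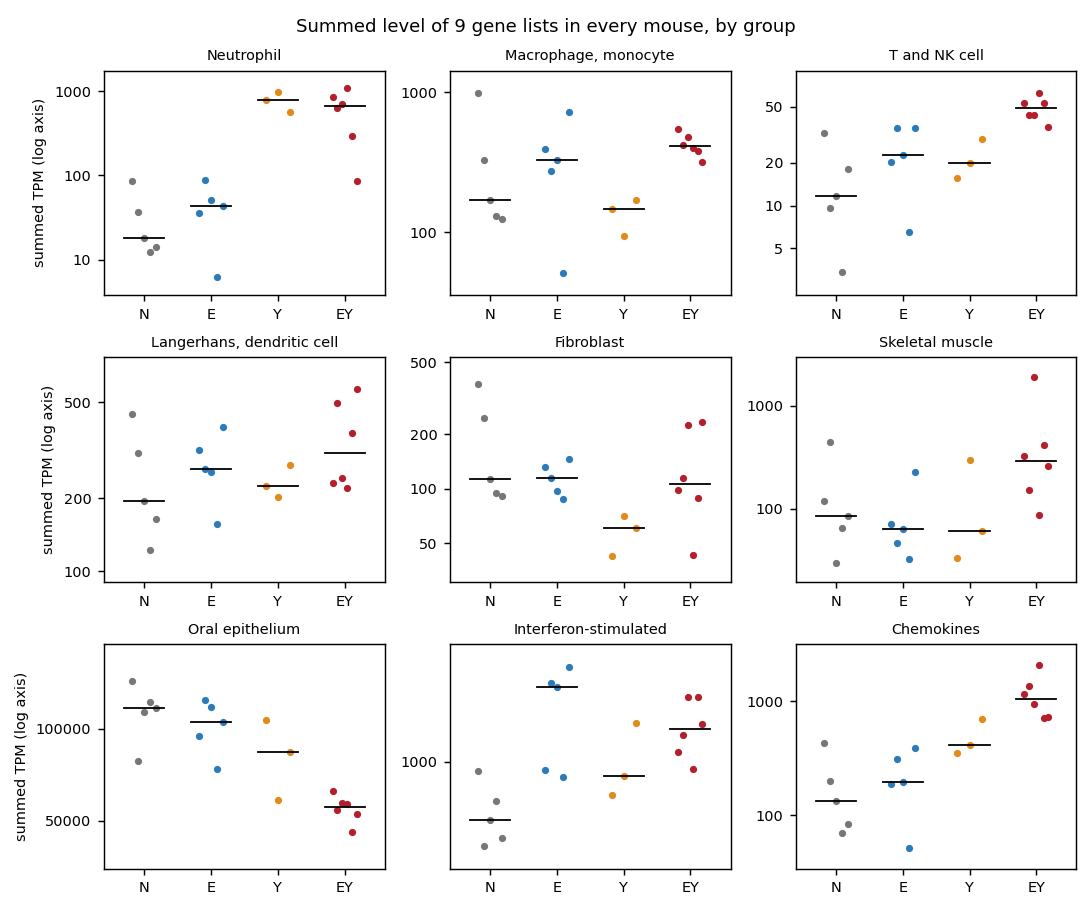
Each point is a mouse, with the summed TPM of a gene list on a log axis for 9 lists in the N, E, Y and EY groups, and a line marks the median of each group. Macrophage and monocyte markers lie between 316 and 549 TPM in the EY mice, above the 3 Y mice, whereas neutrophil markers overlap.

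Interferon-stimulated genes had a median above that of all genes but no call. Of 41 genes 40 had positive fold changes and the median was 1.27 (0.93 to 1.89 when 1 mouse was left out), with 0 limma calls. At an unadjusted p below 0.05 there were 9, against 25.3% of all genes, and 1 gene was higher in all EY mice, against 11.8% of all genes, both smaller shares than those of all genes. The summed level was 581, 791 and 1907 TPM in Y mice 1, 2 and 3 and 1177, 1553, 2911, 887, 2890.2 and 1879 TPM in EY mice 1 to 6, with Ifi27l2a the most abundant, and without Y mouse 3, the highest of its group, 1 gene rose. Chemokines also held no call. The 34 genes tested had a median of 1.17, 0 limma calls and 8 at an unadjusted p below 0.05 (25.3% of all genes). Of the 36 genes on the list, 3 are at 0 in all Y mice. In 5 of the 34, all EY mice were above all Y mice, against 11.8% of all genes. Their summed levels were 353, 412 and 698 TPM in Y mice 1, 2 and 3 and 1149.6, 1368, 948, 2089, 709 and 726 TPM in EY mice 1 to 6. These did not overlap, whereas those of the interferon-stimulated genes did. Ppbp, a platelet chemokine, was the most abundant of them by the mean of the 9 mice. Cxcl16 was above it by the mean of the Y mice (111 against 75.7 TPM) and by the median of the EY mice (168 against 161). Of 31 cytokines, 3 of the epithelium fell: Il36rn, an antagonist of IL-36 (-1.95, adjusted p 0.00194), Il18 (-1.71, 0.00196) and Il36g (-1.01, 0.00485). None of these was called without Y mouse 1, 2 or 3, which left 0 that fell. Il36g was not called without EY mouse 1, 2 or 4 either, which left 2, and its adjusted p was up to 0.0282 in these fits. Without EY mouse 3 or EY mouse 5 there were 4 that fell. In these 2 fits 1 cytokine gene also rose. Defb4, an antimicrobial defensin, fell, with a log2 fold change of -3.07 and an adjusted p of 0.00139, or up to 0.0124 without Y mouse 2 or Y mouse 3. It was the gene called among 19 antimicrobial peptides and alarmins, whose median was -0.43.

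Genes of tissue invasion leaned upward with few calls. Fibroblast, macrophage and muscle markers did so too, with medians of 1.88, 1.7 and 2.46, and their part in these values was not tested. The 23 matrix protease and plasminogen genes had a median of 1.14, and limma found 7, all higher, at an unadjusted p below 0.05 (25.3% of all genes). Mmp1b, of the matrix metalloproteinase family and at or under 0.389 TPM in every EY mouse, rose by 1.66. Its limma adjusted p was 0.00148, or up to 0.0112 without Y mouse 2 or Y mouse 3. The fold change rests on the filter and on the 0.1 TPM added, since Mmp1b was below 0.1 TPM in every Y mouse. All 23 genes of migration and the mesenchymal state had positive fold changes and a median of 0.71, with 0 limma calls and 8 at an unadjusted p below 0.05 (25.3% of all genes). Of the 25 genes on that list, 2 (Snai1 and Twist2) are listed at 0 in all Y mice. Vim, vimentin, was at 34.9, 31.4 and 38.0 TPM in Y mice 1, 2 and 3 and between 39.3 and 148 TPM in the EY mice (median 61.0) with an adjusted p of 0.336. EY mice 6 and 3 had its highest values, 148 and 91.6 TPM, and also the highest summed fibroblast markers, 235 and 224 TPM. The 16 prostaglandin genes had 0 limma calls and 6 at an unadjusted p below 0.05, with a median of 0.53, and without EY mouse 4 there was 1 that rose.

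Metabolic genes moved in both directions. Slc2a3, a glucose transporter of high affinity, was at 2.05, 1.33 and 4.90 TPM in Y mice 1, 2 and 3 and between 6.74 and 33.5 TPM in the EY mice (median 15.9). It rose by 2.66 ± 0.49 with an adjusted p of 0.00274, or up to 0.0228 without Y mouse 1 or Y mouse 2. It was the gene called among 31 of glycolysis and hypoxia, whose median was 0.49. Of the 31, limma found 19, all higher, at an unadjusted p below 0.05 (25.3% of all genes). Of 27 genes of amino acid supply 2 rose and limma found 16, all higher, at an unadjusted p below 0.05, with a median of 0.56. The 2 were Mthfd2, of mitochondrial folate metabolism (1.29, adjusted p 0.00471), and the transporter Slc38a1 (1.75, 0.00497). Neither was called without Y mouse 1, 2 or 3, where their adjusted p values reached 0.0276 and 0.0302, and neither was called after median-of-ratios scaling. In the whole list 0 rose without Y mouse 2 or Y mouse 3, and 1 other gene rose without Y mouse 1. Without EY mouse 1, 2 or 4 there was 1 that rose, and without EY mouse 3 there were 3. Among 36 genes of xenobiotic and aldehyde metabolism 4 fell, with a median of -0.50, and 1 did so without Y mouse 2 or Y mouse 3. Aldh3a1, which clears aldehydes in surface epithelia, was at 266, 237 and 321 TPM in Y mice 1, 2 and 3 and between 45.5 and 129 TPM in the EY mice (median 90.6) and fell, with a log2 fold change of -1.70 ± 0.27 and an adjusted p of 9.90e-04. The 24 cholesterol genes had 0 limma calls, 8 at an unadjusted p below 0.05 (25.3% of all genes), all of them lower, and a median of -0.22.

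Other large rises are given gene by gene, and a common role was not tested. Nes, nestin, an intermediate filament of neural and other progenitors, was at 1.62, 0.678 and 1.11 TPM in Y mice 1, 2 and 3 and between 17.6 and 30.7 TPM in the EY mice (median 21.9), and rose by 4.28 ± 0.46 with an adjusted p of 3.12e-05. Ajm1, a protein of apical junctions, was at 0.114, 0.1002 and 0.103 TPM in Y mice 1, 2 and 3 and between 4.41 and 8.85 TPM in the EY mice (median 7.18), with 5.06 ± 0.39 and an adjusted p of 6.41e-07. Bex1, a small protein best known from neurons, was listed at 0 in all Y mice and lay between 0.888 and 19.2 TPM in the EY mice (median 4.61), so it was tested through the EY mice alone. Further genes were chosen after their values were seen. Icam1, an adhesion molecule for leukocytes, and Mrpl4, a protein of the mitochondrial ribosome, are neighbours among the tested genes in the RefSeq annotation. They rose together, by 2.46 and 1.92, so that their reads may be hard to separate. The adjusted p of Icam1, 0.00182, was up to 0.0169 without Y mouse 1 or Y mouse 2. Ripk3 and Mlkl, the kinase and the executor of necroptosis, rose by 1.46 and 2.12. Their adjusted p values of 0.00973 and 0.00835 were just inside the limit and were up to 0.0681 and 0.0531 without any of Y mice 1 to 3 or EY mice 1, 2, 4 and 5, and the same holds without EY mouse 6 for Ripk3 and EY mouse 3 for Mlkl. Neither was called after scaling. Among the genes that fell, Ahsg, fetuin-A, was at 1.32, 4.82 and 4.40 TPM in Y mice 1, 2 and 3 and between 0.137 and 0.418 TPM in the EY mice (median 0.162), with -3.41 ± 0.35 and an adjusted p of 1.95e-05. Serpina12, the protease inhibitor vaspin, was at 6.49, 7.74 and 7.21 TPM in Y mice 1, 2 and 3 and between 0.287 and 1.47 TPM in the EY mice (median 0.520), with -3.35 ± 0.35 and an adjusted p of 2.54e-05.

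The same addition was made without active YAP in the E and N mice, which share no mouse with EY and Y. Xist was above 10 TPM in 2 of the 5 N mice and 0 of the 5 E mice. Sex, as read from this gene, thus differs here too and enters the difference of contrasts below. In E against N, 263 genes rose (1.23%) and 6 fell (0.0281%). The number that fell was 3 without E mouse 3 or N mouse 3 and 2 without N mouse 4 or N mouse 5. Of the genes that rose, 130 did so in both contrasts, which is 52.0% of the 250 in EY against Y and 49.4% of the 263 in E against N. None fell in both. Of the 250, 233 (93.2%) had a positive fold change in E against N, where 58.8% of all genes did, with a median of 1.23. The 221 genes that fell had a median of -0.14 there. Across the 21315 genes, which are not independent replicates, Pearson's r between the fold changes was 0.16.

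Whether active YAP changed the effect of E6-E7 was tested gene by gene as the difference of the log2 fold changes, EY minus Y less E minus N. Limma called 40 genes (0.188%), with 2994 at an unadjusted p below 0.05. In 38 the effect was lower with active YAP, and 34 of these were among the 221 that fell in EY against Y. The 250 genes that rose held 1. The 40 included 13 Lce1 genes, and Lce1i had a difference of -4.93 ± 0.39 with an adjusted p of 4.90e-06. Without E6-E7 or active YAP, and with E6-E7 alone, Acer1 was at a mean of 24.2 ± 3.51 TPM in N and 21.2 ± 2.12 in E (SD), and its difference was -1.90 ± 0.27 with an adjusted p of 0.00159. Krt24 had -2.72 ± 0.39 and Serpina12 -3.01 ± 0.47. Leaving out EY mouse 3 raised the count to 75 (72 lower), and leaving out Y mouse 1 lowered it to 26 (25 lower).

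Division genes passed this test on a few occasions only, and from the other side. The 49 mitosis genes had a median of 1.60 in E against N, where 46 rose, and of 0.97 in EY against Y, where 21 rose. Their median difference was -0.56, and that of the 50 replication genes was 0.01. Cdc20, which activates the anaphase ligase, rose by 2.13 in E against N and had 0.84 in EY against Y, with a difference of -1.29 ± 0.21 and an adjusted p of 0.00751. Kifc1, a spindle motor chosen after its values were seen, rose by 2.28 in E against N and had 0.50 in EY against Y, with a difference of -1.78 ± 0.25. In both genes the Y mice were already near or above the E mice. The 2 genes with a higher effect under active YAP, Fkbp11, a folding enzyme of the endoplasmic reticulum, and Nudt19, a coenzyme A hydrolase, were also chosen after their values were seen. Their differences were 2.83 ± 0.47 and 1.38 ± 0.22. There was 1 such gene without EY mouse 1, EY mouse 4, Y mouse 1 or E mouse 5, none without E mouse 1 or E mouse 3, and 4 without N mouse 5. For replication, repair and G1 genes 0 differences were called, and Stag3 had 1.08 ± 0.43 with an adjusted p of 0.256. Of the 21 late cornified envelope genes 13 differed, while their median fold change was 0.24 in E against N.

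**Figure D5:**
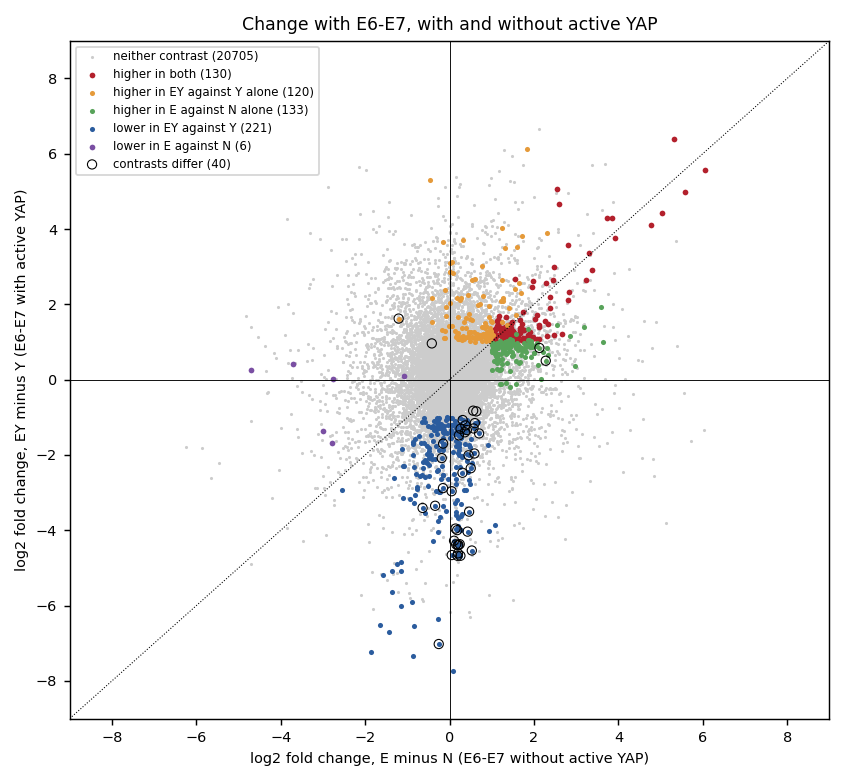
Each point is a gene, placed by its log2 fold change with E6-E7 in mice without active YAP (E minus N, x axis) and with active YAP (EY minus Y, y axis), coloured by the contrast that called it, with circles on the 40 genes whose fold changes differed. The 130 genes that rose in both lie on both sides of the dotted line of equal change, and the 221 that fell in EY against Y have a median of -0.14 on the x axis.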

How the data were processed

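The authors aligned reads to GRCm39 with STAR 2.7.9, processed them with SAMtools 1.7 and HTSeq 0.13.5, and used DESeq2 1.34.0. They deposited TPM for 24689 genes in 19 mice. How the TPM of this table were made, and with which gene lengths, is not given in the sources used here. The methods do give TPM from Kallisto for gene set analysis, on human transcripts, whereas the table lists mouse genes, and whether that step bears on it is not known. Read totals per mouse were recovered from the steps between TPM values of a gene, which give whole reads within 0.05 for all genes above 0. They set the precision: low TPM rest on few reads, and counting error alone is covered.

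Values were taken as log2(TPM + 0.1) and fitted with limma 3.58.1 in R 4.3.3, with 4 group means over all 19 mice and a variance trend. Contrasts were EY minus Y, E minus N and their difference, with p-values adjusted by the Benjamini-Hochberg method over 21315 genes. Tables and figures used Python 3.11.15, pandas 2.3.3, numpy 2.4.6 and matplotlib 3.10.9. The members and lists were chosen with earlier results of these data known. Named genes are the 12 largest rises and 12 largest falls without overlap and with a mean of at least 1 TPM (no Gm or Rik symbols, at most 3 per family), 6 genes of the YAP, p53 and RB pathways, up to 4 of each list and any member whose role is described, and 6 for the difference of contrasts; some of these genes are not reported here. The numbers of the titles gave no sign of pairing: same-numbered EY and Y mice had r of 0.03, -0.04 and -0.03 for their deviations. Alternatives were other pseudocounts, filters, scalings, models, thresholds, a replicate block, Xist as a covariate and leaving out each mouse. Promoter letters came from RefSeq for GRCm38.p6, an older build than that of the authors, and were matched by symbol only.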

Additional observations from a re-analysis of the deposited data

Results flagged for a closer look

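In 7 of 188 sets of 6 EY values, a mouse lay far from the others relative to the range of the set. Chance gives that in about 1 in 20 groups. EY mouse 2 had 7.947 TPM of Lce1i, where the others had 15.42 to 22.21. EY mouse 4 was low in 4 genes: Dsg1a at 16.83 TPM (others 30.58 to 41.35), Dsc1 at 18.56 (38.09 to 56.73), C1qa at 16.24 (37.73 to 54.51) and Nkg7 at 1.092 (3.974 to 8.396). EY mouse 3 was high in Krt13, with 27610 TPM against 18470 to 21090, and EY mouse 6 was low in summed antimicrobial peptides, with 502.6 TPM against 1137 to 1752.

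By limma's test of the difference itself, the effect of E6-E7 with active YAP differed from that without it in 40 genes. Of the genes named, the difference of log2 fold changes was -4.86 for Lce1j, -4.93 for Lce1i, -4.71 for Lce1k, -4.81 for Lce1b, -4.60 for Lce1c, -4.10 for Lce1d and -4.61 for Lce1g, all near-identical copies. It was -2.77 for Ahsg, -3.01 for Serpina12, -1.90 for Acer1, -2.72 for Krt24, -1.78 for Kifc1 and -1.29 for Cdc20. Gm38119, a predicted gene listed at 0 in all EY mice and at 11.9 to 14.5 TPM in Y mice, had -6.76, which depends on the 0.1 TPM added. It reached the level of the comparison through the Y mice alone and could only fall in EY against Y, so its value is given as a description. The effect was higher with active YAP for Fkbp11, by 2.83, and Nudt19, by 1.38.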

How the results depend on the processing

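Of 471 genes called in EY against Y, an adjusted p below 0.05 gave 886, no limit on the fold change 850, and only the 9 EY and Y mice in the model 211, with 197 to 504 when 1 of these mice was left out. Of EY against Y, genes higher (250), the same settings gave 465, 565 and 154, median-of-ratios scaling 124, quantile normalization 131, and leaving out a mouse 84 to 258. Of EY against Y, genes lower (221), they gave 421 at an adjusted p below 0.05, 57 with the 9 mice and 137 with Xist as a covariate, and 96 to 246 without a mouse. With the mouse number as a replicate block, 334 genes were called. Of E against N, genes lower (6), only N mice 1 to 3 gave 1, and leaving out a mouse 2 to 9. For EY - Y against E - N (40), leaving out a mouse gave 26 to 75. For EY - Y against E - N, genes higher (2), a pseudocount of 0.01 TPM gave 4, the replicate block 0, Xist as a covariate 1 and leaving out a mouse 0 to 4, and for EY - Y against E - N, genes lower (38), it gave 25 to 72. The fits that left out an E mouse or an N mouse, and those with Xist for contrasts other than EY against Y, were chosen after seeing the data. The cause was not tested, except that fewer mice leave less information.

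For some genes that were not called the sign changed: the log2 fold change of Yap1 (-0.0809 by median-of-ratios scaling, -0.0854 by quantile normalization, and -0.0789 without Y mouse 2 to 0.190 without Y mouse 1), the log2 fold change of Mdm2 (-0.0545 and -0.0165 by these scalings), the log2 fold change of Krt14 (-0.0750 by median-of-ratios scaling, -0.0239 without EY mouse 1, and -0.118 without Y mouse 2 to 0.420 without Y mouse 1) and the log2 fold change of Ifi27l2a (-0.0504 without Y mouse 1 to 0.889 without Y mouse 3). With the replicate block the log2 fold change of Ccn1 was -0.0144 and the log2 fold change of S100a8 0.179. The cause was not tested. Of the 140 named genes, not all of which are reported here, 97 were called in EY against Y. Settings took between 1 and 48 calls from them, and no called gene changed sign.

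With 3 Y mice the spread within that group is poorly known, and the model borrows it from all groups. Sex is unequal between the groups. TPM show shares of a library and not amounts per cell, so a scaling sets where 0 lies. Reads of near-identical or overlapping genes are hard to place, and genes that reached 0.1 TPM in fewer than 3 of the 9 mice were not tested. Promoter letters are from another build. Lists were written with the data known, and the bulk libraries hold cells with and without active transgenes.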
